A study of Danio rerio with 16 samples.

Results

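Primordial germ cells (PGCs) of the zebrafish blastula were compared with the somatic cells of the same stage, 4 h post fertilisation (hpf), across all genes and in both directions. The comparison rested on 4 of the 16 RNA-seq libraries of the series, 2 of PGCs and 2 of soma, chosen by their sample names and stage, and 20536 of 34289 annotated genes had enough counts over the 16 libraries to be tested. Rows of spike-in controls were left out. All libraries of the series came from embryos that carry the transgene kop:egfp-f'nos3'UTR-cry:dsred, which places a membrane-bound EGFP in PGCs, and both cell types were separated by fluorescence-activated cell sorting at 4, 7, 24 and 36 hpf. PGC and soma therefore share the transgene and were told apart by EGFP. Soma here means the sorted cells without PGC fluorescence, a mixture of all other cells of the embryo that the sort admitted. The study treats the 2 libraries of a group as independent biological replicates, and no deposited label names the clutch behind each, or which of the several rearing temperatures of the study its embryos had.

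Zebrafish germ cells are set aside by germ plasm, a cytoplasm of maternal RNA and protein that gathers at the first cleavage furrows and passes to few cells. Most of its RNAs are also laid down in the rest of the egg, where they are cleared during the maternal-to-zygotic transition, in part by the microRNA miR-430, while RNA-binding proteins such as Dnd1 shield them in PGCs. At 4 hpf the embryo is a ball of cells in which zygotic transcription has only recently begun, so that most RNA is maternal and the first zygotic transcripts lie on top of it. The RNA of a bulk library cannot tell fewer cells that hold a transcript from less of it per cell, which applies to each difference given here.

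The 4 libraries held between 2825775 and 4674227 expected counts, estimates of the reads that came from each gene, and between 16525 and 17063 genes with a count. Levels are given as CPM, counts scaled to a common library total, after scaling by trimmed mean of M-values (TMM), and 3 counts, taken as the lowest level that can be read, corresponded to between 0.497 and 0.719 CPM. Across genes, the log-scaled levels of the 2 PGC libraries correlated at r = 0.955 and those of the 2 soma libraries at r = 0.946, while PGC and soma libraries of replicate 1 correlated at 0.959, those of replicate 2 at 0.958, PGC replicate 1 with soma replicate 2 at 0.940 and PGC replicate 2 with soma replicate 1 at 0.949. Libraries with the same replicate number were thus as alike across cell types as the replicates of a cell type were, and those with different numbers were about as alike or less so. The PGC markers nanos3, ddx4, dnd1, tdrd7a, dazl and ca15b summed to 6195 and 9078 CPM in the PGC libraries and to 233 and 186 CPM in the soma libraries, in accord with the labels of all 4.

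Of the 20536 genes tested, 9 were called higher in PGCs (0.0438% of the genes tested) and 0 were called lower (0%), a call being an adjusted p under 0.05 in the edgeR quasi-likelihood test with a log2 fold change past 1.5 in size. At an unadjusted p under 0.05, 601 genes were higher (2.93%) and 472 were lower (2.30%). With the same fold change required as well, 403 were higher (1.96%) and 363 lower (1.77%), and a mean level under 1 CPM was found for 191 of the 403 and for 208 of the 363. Without soma replicate 1, 683 genes were higher by that rule. The PGC values were above the soma values without overlap for 2865 genes (14.0%) and below them for 2824 (13.8%), and the median log2 fold change of all genes was 0. Genes with few counts thus made up much of both tails. The called genes stood out at higher levels, as the plot of fold change against level shows, except chkb, with a mean of 4.14 CPM. Genes called lower numbered 8 by edgeR's likelihood ratio test, 7 by the edgeR exact test, 4 by DESeq2 and 4 to 6 by limma, and 32 by the quasi-likelihood test with no filter on low counts.

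**Figure D1:**
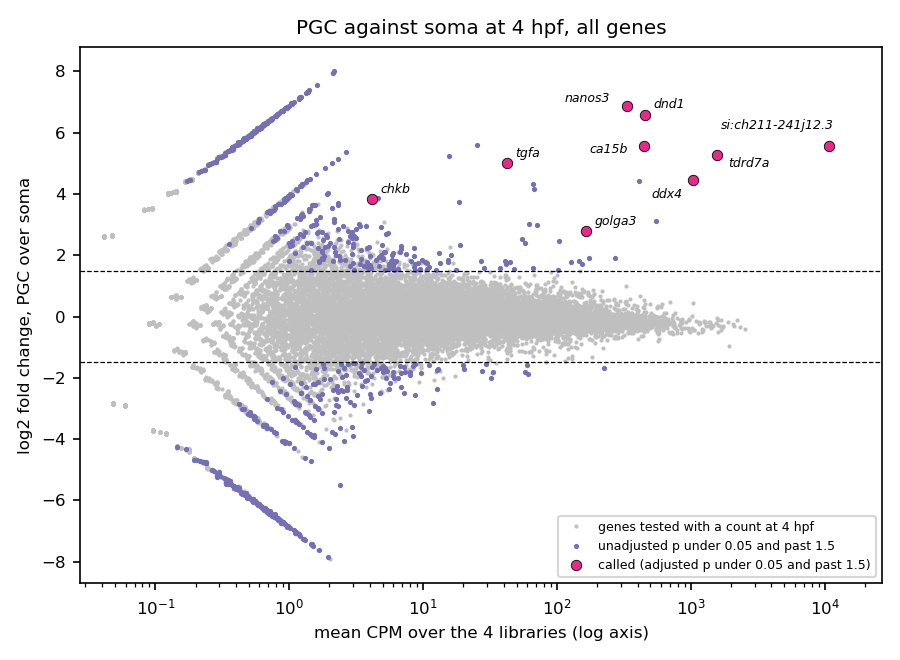
Log2 fold change of PGC over soma at 4 hpf (vertical axis) against mean level over the 4 libraries (horizontal axis, CPM, log scale), 1 point for each gene tested that had a count at 4 hpf. Dashed lines stand at 1.5 above and below 0; the 9 called genes are named and all lie above the upper line, and genes past both lines at an unadjusted p under 0.05 (purple) lie mostly at low levels.

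The 9 genes called higher were nanos3, dnd1, si:ch211-241j12.3, ca15b, tdrd7a, tgfa, ddx4, chkb and golga3. Of these, 5 belong to a list of 12 germ plasm RNAs (13 gene IDs, since hook2 has 2), and all 13 IDs of that list were tested. All 13 were higher in both PGC libraries than in both soma libraries, against 14.0% of all genes, and 11 of the 13 had an unadjusted p under 0.05, against 2.93% of all genes. The median log2 fold change of the list was 4.31. These RNAs are known for their place in germ plasm, but the lists were chosen with earlier results of these data known. The list therefore describes them as a group rather than testing them. Their summed level was 8135 and 12013 CPM in the PGC libraries and 671 and 548 CPM in the soma libraries.

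**Figure D2:**
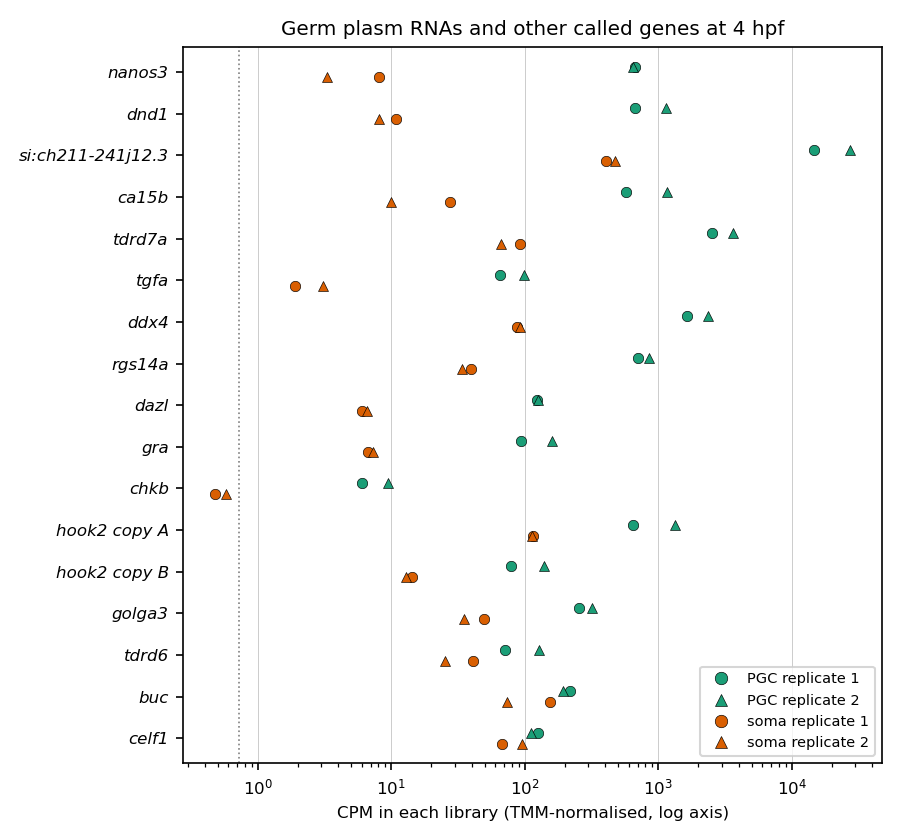
Level of each germ plasm RNA and of each other called gene in the 4 libraries (horizontal axis, TMM-normalised CPM, log scale); circles are replicate 1, triangles replicate 2, green PGC and orange soma, and the dotted line marks the highest level that 3 counts stand for, 0.719 CPM. Copy A of hook2 is ENSDARG00000099235 and copy B ENSDARG00000039309. Green symbols lie to the right of orange ones in every row, from nanos3 (670 and 645 against 8.15 and 3.29 CPM) to celf1 (125.5 and 111 against 67.3 and 95.1 CPM).

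Proteins that bind germ cell RNAs and repress, protect or translate them formed a first group. Nanos3, a translational repressor that germ cells need to survive, read 670 and 645 CPM in PGCs and 8.15 and 3.29 CPM in soma. Its 2 soma libraries rested on 34 and 17 counts, its groups lay far apart, and its log2 fold change of 6.86 ± 0.58 (SE, 2 libraries a group; adjusted p = 0.0001665) was the largest among called genes. The transgene carries the 3'UTR of nanos3, and transgene reads that fell there cannot be told apart from those of the gene. Dnd1, which binds RNA and keeps miR-430 from its targets, read 674 and 1139 CPM in PGCs and 10.8 and 8.14 CPM in soma. No library of one cell type reached the other, and the log2 fold change was 6.58 ± 0.72 (adjusted p = 0.00154). Dazl, which promotes translation of germ cell RNAs, read 124.6 and 126.2 CPM in PGCs and 5.99 and 6.59 CPM in soma. Its log2 fold change of 4.31 ± 0.80 missed the adjusted threshold (adjusted p = 0.129), although its replicates lay close together in both cell types. Celf1, another RNA-binding protein whose RNA enters germ plasm, read 125.5 and 111 CPM in PGCs and 67.3 and 95.1 CPM in soma. Its groups were close, with a log2 fold change of 0.54 ± 0.29 (adjusted p = 0.946), the smallest of the list.

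Proteins of germ granules formed a second group. Ddx4, the RNA helicase Vasa, read 1630 and 2371 CPM in PGCs and 88.2 and 92.2 CPM in soma. Both soma libraries were well below the PGC libraries but held 368 and 476 counts, and the log2 fold change was 4.47 ± 0.60 (adjusted p = 0.0116). Tdrd7a, a tudor-domain protein of germ granules, read 2522 and 3633 CPM in PGCs and 92.3 and 66.1 CPM in soma, a log2 fold change of 5.28 ± 0.74 (adjusted p = 0.0144). Tdrd6, a related tudor-domain protein, was separated far less. It read 70.9 and 129 CPM in PGCs and 41.0 and 25.4 CPM in soma, a log2 fold change of 1.59 ± 0.50 (adjusted p = 0.818). Buc, the protein that organises germ plasm in the oocyte and embryo, read 217 and 193 CPM in PGCs and 154 and 74.2 CPM in soma. The highest soma library thus lay near the PGC libraries, and the log2 fold change was 0.84 ± 0.78 (adjusted p = 1.00).

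The other listed RNAs were intermediate. Ca15b, a carbonic anhydrase RNA of germ plasm, read 575 and 1164 CPM in PGCs and 27.3 and 9.88 CPM in soma. It was called, with a log2 fold change of 5.55 ± 0.75 (adjusted p = 0.0116), and its 2 libraries differed from each other in both cell types by more than those of nanos3 in PGCs. Rgs14a, a regulator of G-protein signalling, read 710 and 856 CPM in PGCs and 39.8 and 33.7 CPM in soma, a log2 fold change of 4.41 ± 0.79 (adjusted p = 0.0985). Gra, a germ cell RNA, read 93.8 and 160 CPM in PGCs and 6.71 and 7.36 CPM in soma, a log2 fold change of 4.17 ± 0.73 (adjusted p = 0.088). Neither passed the adjusted threshold, although neither had overlapping groups. Hook2, named for a family that links cargo to microtubule motors, is annotated in 2 copies, and how the authors' counting divided reads between the copies is uncertain. The copy ENSDARG00000099235 read 643 and 1346 CPM in PGCs and 115 and 113 CPM in soma (log2 fold change 3.13 ± 0.51, adjusted p = 0.0536). The copy ENSDARG00000039309 read 79.4 and 140 CPM in PGCs and 14.4 and 13.0 CPM in soma (log2 fold change 3.01 ± 0.84, adjusted p = 0.688).

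The 4 called genes outside that list were si:ch211-241j12.3, tgfa, golga3 and chkb. The transcript si:ch211-241j12.3, known in the annotation only by its clone name, read 14593 and 27413 CPM in PGCs and 406 and 474 CPM in soma. Its groups were far apart although soma held 1696 and 2446 counts of it, and its log2 fold change was 5.58 ± 0.54 (adjusted p = 0.000595). Tgfa, a ligand of the epidermal growth factor receptor, read 65.0 and 99.3 CPM in PGCs and 1.92 and 3.10 CPM in soma, a log2 fold change of 5.01 ± 0.73 (adjusted p = 0.0194). Golga3, a golgin of the Golgi apparatus, read 256 and 322 CPM in PGCs and 49.6 and 34.9 CPM in soma, and its log2 fold change of 2.77 ± 0.44 (adjusted p = 0.0409) was the smallest that was called. Chkb, a choline kinase, had far fewer counts than the rest. Its 4 libraries held 32 and 57 counts in PGCs and 2 and 3 counts in soma, 6.05 and 9.45 against 0.479 and 0.581 CPM, so that its soma level was at the limit of what could be read. The ratio of its normalised levels summed over libraries was 14.7, with a 95% counting interval from 6.06 to 46.3 that covers counting error only, and the fitted log2 fold change was 3.82 ± 0.60 (adjusted p = 0.0401).

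Per length, by TPM, a level scaled for transcript length and library total, si:ch211-241j12.3 ranked 50 and 53 among all genes of the 2 PGC libraries, nanos3 134 and 177, tdrd7a 141 and 146, rgs14a 149 and 172, ddx4 156 and 158, ca15b 178 and 147, and dnd1 219 and 199. These 7 were thus among the most abundant transcripts of the PGC libraries. Golga3 ranked 1876 and 1533, tgfa 3106 and 2340, and chkb 11158 and 9710. The soma still held a measurable share of these RNAs, and this share varied between them. Mean soma CPM was 0.871% of mean PGC CPM for nanos3, 1.04% for dnd1, 2.10% for si:ch211-241j12.3, 2.14% for ca15b, 2.57% for tdrd7a, 3.05% for tgfa, 4.51% for ddx4, 5.02% for dazl and 14.6% for golga3. It was 33.3% for tdrd6, 55.7% for buc and 68.6% for celf1. Whether PGCs in the soma gate have a part in these levels was not tested.

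The number of calls depended on single libraries and on the setting. Nanos3 was called under all 16 alternatives tried, and si:ch211-241j12.3 under 15, while golga3 was called under 9 and chkb under 6. Without soma replicate 1, nanos3 alone of the 9 was called, and without soma replicate 2, nanos3 and si:ch211-241j12.3 were. Without PGC replicate 2, chkb, golga3, tdrd7a and tgfa were lost, and without PGC replicate 1, chkb and golga3. Across these alternatives the log2 fold change of nanos3 ranged from 6.34 to 7.63, that of dnd1 from 6.16 to 6.91, that of ddx4 from 4.18 to 4.74, that of golga3 from 2.55 to 3.05, and that of chkb from 1.25 to 4.10. Between 1 and 11 of the 13 germ plasm IDs were called, depending on the setting. Fitted to the 4 libraries of 4 hpf alone, the quasi-likelihood test called 15 genes, 8 of the 9 (not chkb) with dazl, gra, rgs14a, both hook2 copies, ppfibp1a and ppfibp1b. With replicate number as a block in the 16-library fit, ddx4, tdrd7a, tgfa, golga3 and chkb were not called.

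Among other genes of the germline, 0 were called. The piRNA pathway silences transposons in germ cells through Piwi proteins and their tudor-domain partners. Of its 14 listed genes tested, 0 were called and 0 had an unadjusted p under 0.05 in either direction by edgeR, and the median log2 fold change was 0.06. Piwil1, a Piwi protein, read 52.7 and 58.2 CPM in PGCs and 49.9 and 58.1 CPM in soma, and piwil2 read 36.5 and 32.2 CPM against 38.1 and 19.2 CPM. The groups of both overlapped. Tdrd1, which scaffolds the pathway, read 67.5 and 71.1 CPM in PGCs and 63.0 and 30.2 CPM in soma, a log2 fold change of 0.57 ± 0.57. At 7 hpf the median of the same 14 genes was 1.33 and 3 of them were called higher in PGCs.

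Of 9 tested genes of germline RNA binding and meiosis, 0 were called and 1, adad1, had an unadjusted p under 0.05 (0.02705; 11.1% of the list, against 2.93% of all genes). Adad1, which encodes an RNA-binding protein of the male germline in the mouse, read 11.2 and 20.9 CPM in PGCs and 1.92 and 7.36 CPM in soma (log2 fold change 1.77 ± 0.71, adjusted p = 0.944). Topaz1, a germ cell gene needed for male meiosis in the mouse, read 59.4 and 130 CPM against 45.5 and 46.9 CPM, and sycp1, of the synaptonemal complex, read 30.1 and 33.7 CPM against 20.6 and 22.9 CPM. PGCs lay above soma for both of these, without passing the test. Of the 9 genes, 4 lay above soma without overlap (44.4%, against 14.0% of all genes) and 0 below, and the median was 0.41. Among 20 genes of the oocyte and of maternal translational control, 0 had an unadjusted p under 0.05, and 17 had overlapping groups. Without overlap, 3 lay above soma (15%, against 14.0% of all genes) and 0 below (against 13.8%). Zar1, an oocyte RNA-binding protein, read 23.6 and 18.7 CPM in PGCs and 14.1 and 10.5 CPM in soma, and gdf3, the maternal partner of Nodal ligands, read 170 and 312 CPM against 141 and 289 CPM. The median of these 20 was 0.13.

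**Figure D3:**
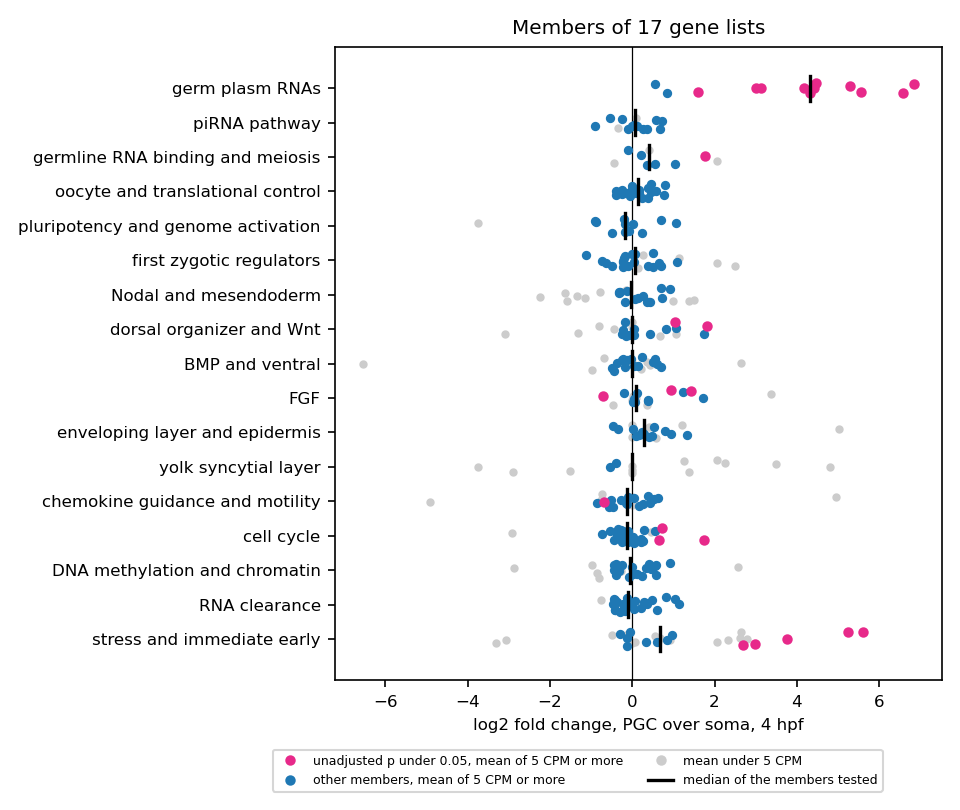
Log2 fold change of PGC over soma at 4 hpf for the tested members of the 17 gene lists, 1 row a list and 1 point a gene ID; pink marks an unadjusted p under 0.05 and blue the other members, both with a mean of 5 CPM or more, grey those below 5 CPM, and black bars the median of each list. The germ plasm row has its median at 4.31, the stress row at 0.67, and the other 15 rows have theirs between -0.17 and 0.41.

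The maternal factors that open the zygotic genome did not pass the test in either direction. Of 12 tested genes of pluripotency and genome activation, 0 had an unadjusted p under 0.05 by edgeR, and the median log2 fold change was -0.17. Nanog, which with Pou5f3 and SoxB1 proteins activates the first zygotic genes, read 1388 and 1239 CPM in PGCs and 1411 and 1534 CPM in soma. Pou5f3 read 725 and 901 CPM in PGCs and 992 and 1312 CPM in soma, a log2 fold change of -0.50 ± 0.46. The SoxB1 genes did not share a direction. Sox3 read 88.8 and 81.2 CPM in PGCs and 136 and 181 CPM in soma (-0.90 ± 0.61 on the log2 scale), and sox19a read 66.0 and 54.9 CPM against 96.8 and 127 CPM (-0.89 ± 0.65). Sox19b, their maternal relative, read 166 and 259 CPM in PGCs and 141 and 122 CPM in soma (0.69 ± 0.38). Eomes, a maternal T-box factor, read 90.4 and 128 CPM against 55.8 and 49.2 CPM (1.06 ± 0.60). The groups of none of these overlapped. Of the 12, 2 lay above soma and 4 below without overlap, against 14.0% and 13.8% of all genes. The groups of the remaining 6, which are not given here, overlapped.

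Most of the first zygotic regulators had overlapping levels in PGCs and soma. Of 24 tested, 0 had an unadjusted p under 0.05, 17 had overlapping groups, and the median log2 fold change was 0.06. Without overlap, 3 lay above soma and 4 below, against 14.0% and 13.8% of all genes, so this list was near all genes. The log2 fold changes ran from -1.13 to 2.49, and from -1.13 to 1.08 among members with a mean of at least 5 CPM. Tbx16, a T-box gene of early mesoderm, read 282 and 390 CPM in PGCs and 276 and 440 CPM in soma. Vox and ved, ventral repressors of dorsal genes, read 213 and 282 CPM and 153 and 152 CPM in PGCs, and 193 and 286 CPM and 97.5 and 207 CPM in soma. Tbxta, of the notochord and tail, read 37.4 and 42.6 CPM against 19.4 and 74.02 CPM. The PGC values of these 4 genes lay within or beside the span of the soma values. Nnr, another early zygotic transcript, read 73.0 and 32.0 CPM in PGCs and 122 and 107 CPM in soma, and apela, a secreted peptide that acts on the apelin receptor, read 14.7 and 29.5 CPM against 31.4 and 31.0 CPM. Their log2 fold changes were -1.13 ± 0.83 and -0.49 ± 0.69, and the groups of neither overlapped.

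The genes of the Nodal pathway, which induces mesoderm and endoderm, showed 0 of 24 with an unadjusted p under 0.05 and a median of -0.03. The pathway's feedback inhibitors lft1 and lft2 read 31.8 and 24.4 CPM and 31.6 and 11.9 CPM in PGCs, and 15.1 and 14.5 CPM and 14.4 and 12.4 CPM in soma. Only lft1 was separated, with a log2 fold change of 0.92 ± 0.70. Mixl1, a homeobox target of Nodal, read 66.5 and 53.5 CPM in PGCs and 27.6 and 65.5 CPM in soma, overlapping. Among 23 genes of the BMP pathway, which patterns the ventral side, 0 were higher and 1 was lower at an unadjusted p under 0.05. The lower was an ID named bambi, after a BMP pseudoreceptor, with 0 and 0 counts in PGCs and 11 and 3 counts in soma. Another ID of that name read 85.3 and 138 CPM in PGCs and 80.5 and 137 CPM in soma. The BMP target id1 read 173 and 225 CPM against 230 and 223 CPM.

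In the lists of Wnt and FGF signalling, several genes lay above soma. Of 21 tested genes of the dorsal organizer and Wnt pathway, 2 were higher at an unadjusted p under 0.05 (9.52% of the list, against 2.93% of all genes) and 0 were lower, and the median was 0. Lef1, the nuclear partner of beta-catenin and a target of the pathway, read 49.5 and 34.2 CPM in PGCs and 16.1 and 7.94 CPM in soma. Both PGC libraries were more than double the higher soma library, with a log2 fold change of 1.81 ± 0.39 (unadjusted p = 0.000338, adjusted p = 0.281). Axin2, a feedback inhibitor, read 55.8 and 113 CPM in PGCs and 30.7 and 51.0 CPM in soma, a log2 fold change of 1.05 ± 0.42 (adjusted p = 0.944). Chrd, the dorsal BMP antagonist, read 180 and 227 CPM against 104 and 127 CPM, also without overlap (0.82 ± 0.47). The beta-catenin genes ctnnb1 and ctnnb2 read 323 and 366 CPM and 455 and 409 CPM in PGCs, and 360 and 454 CPM and 421 and 419 CPM in soma.

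Of 19 tested FGF genes, 2 were higher (10.5%, against 2.93% of all genes) and 1 lower at an unadjusted p under 0.05, and the median was 0.10. Dusp6, a phosphatase induced by FGF that damps ERK signalling, read 95.6 and 168 CPM in PGCs and 34.3 and 63.2 CPM in soma (log2 fold change 1.44 ± 0.47, adjusted p = 0.879). Etv5a, a transcription factor downstream of FGF, read 148 and 134 CPM in PGCs and 80.3 and 65.7 CPM in soma (0.95 ± 0.34, adjusted p = 0.9295). Other feedback targets of the pathway were not separated in this way. Spry2 read 12.29 and 22.2 CPM against 11.98 and 22.3 CPM, and etv4 read 49.0 and 50.7 CPM against 31.2 and 66.1 CPM. The receptor name fgfr1 is shared by 2 gene IDs here, and the ID lower in PGCs read 59.5 and 58.0 CPM against 74.5 and 119 CPM (-0.72 ± 0.32). The other fgfr1 ID read 46.3 and 77.4 CPM against 41.0 and 73.4 CPM. None of these genes passed the adjusted threshold in the 16-library fit, and lef1 was called by DESeq2 (adjusted p = 0.00936) and by edgeR's likelihood ratio test (adjusted p = 0.0229).

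**Figure D4:**
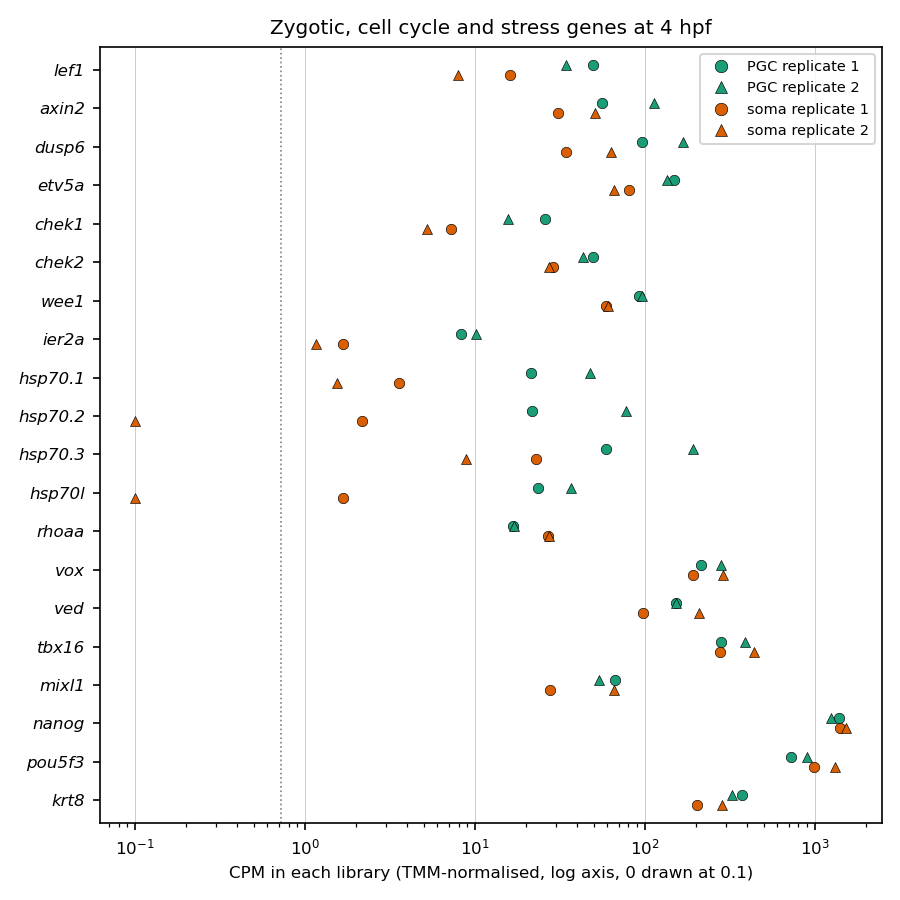
Level of 20 zygotic, signalling, cell cycle and stress genes in each of the 4 libraries (horizontal axis, TMM-normalised CPM, log scale, with 0 drawn at 0.1); circles are replicate 1, triangles replicate 2, green PGC and orange soma, and the dotted line is 0.719 CPM. The rows from lef1 to hsp70l have green symbols to the right of orange ones, rhoaa, nanog and pou5f3 have green symbols to the left, krt8 to the right, and vox, ved, tbx16 and mixl1 overlap.

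Cell types that could share the sorted fractions were looked at through their own markers. The 8 enveloping layer markers, keratins and a claudin of the outer epithelium of the blastula, summed to 880 and 667 CPM in PGCs and 561 and 665 CPM in soma. Both PGC sums were above both soma sums, though 1 of each lay close together. Of a wider list of 21 enveloping layer and epidermal genes, 0 had an unadjusted p under 0.05 and 8 lay above soma without overlap (38.1%, against 14.0% of all genes), with a median of 0.28 that was 2.22 at 7 hpf. Krt8 read 370 and 325 CPM in PGCs and 202 and 284 CPM in soma, and krt4 read 192 and 119 CPM against 136 and 125 CPM. The 4 markers of the yolk syncytial layer summed to 26.1 and 13.1 CPM against 12.2 and 4.84 CPM, those of mesendoderm to 394 and 498 CPM against 333 and 586 CPM, and those of the dorsal organizer to 205 and 248 CPM against 119 and 141 CPM. Each of these marker lists had 0 members at an unadjusted p under 0.05 in either direction, and no member with 3 counts or fewer over the 4 libraries. The part of these cells in the differences above was not tested.

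Genes of guidance and motility, which PGCs use when they migrate toward the chemokine Cxcl12, gave 0 calls at 4 hpf. Of 23 tested, 0 were higher and 1 was lower at an unadjusted p under 0.05, and the median was -0.13. Of the 23, 4 lay above soma and 6 below without overlap, against 14.0% and 13.8% of all genes. The lower gene was rhoaa, a RhoA GTPase of the cytoskeleton, at 16.6 and 17.1 CPM in PGCs and 26.8 and 27.3 CPM in soma (log2 fold change -0.68 ± 0.28, adjusted p = 0.944). The gene names used here give the chemokine receptor name cxcr4 to 2 gene IDs. They do not tell which of these is the cxcr4b that the study names. One ID read 59.4 and 94.5 CPM in PGCs and 48.4 and 51.7 CPM in soma. The other read 60.5 and 61.0 CPM against 82.4 and 85.5 CPM, in the opposite direction, and neither passed the test. The adhesion gene cdh1 read 281 and 275 CPM against 376 and 416 CPM (-0.51 ± 0.63).

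Of 37 cell cycle genes tested, 3 were higher at an unadjusted p under 0.05 (8.11%, against 2.93% of all genes), 0 were lower, and the median was -0.13. These 3 restrain entry into mitosis. Chek1, a checkpoint kinase, read 25.9 and 15.6 CPM in PGCs and 7.19 and 5.23 CPM in soma (log2 fold change 1.74 ± 0.56, adjusted p = 0.8665). Chek2, another checkpoint kinase, read 49.3 and 43.3 CPM against 28.8 and 27.3 CPM (0.72 ± 0.33), and wee1, which inhibits Cdk1, read 92.4 and 96.0 CPM against 59.0 and 60.3 CPM (0.66 ± 0.28). Replicates of both lay close together in both cell types. Other members of the list lay on the other side of 0 without passing the test, such as ccna2, a cyclin, at 406 and 424 CPM against 508 and 547 CPM and mcm5, of the replicative helicase, at 102 and 158 CPM against 179 and 253 CPM.

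The machinery of DNA methylation and chromatin, and that of RNA clearance, gave 0 calls in either direction. Of 24 genes of DNA methylation and chromatin and 26 of RNA clearance, 0 had an unadjusted p under 0.05 in either direction by edgeR, with medians of -0.04 and -0.09. Of the 24, 6 lay above soma and 3 below without overlap. Of the 26, 5 lay above and 9 below, against 14.0% above and 13.8% below of all genes. Dnmt1, the maintenance methyltransferase, read 514 and 548 CPM in PGCs and 409 and 320 CPM in soma (log2 fold change 0.54 ± 0.42). Its partner uhrf1 read 833 and 735 CPM against 967 and 1081 CPM (-0.39 ± 0.44), in the opposite direction. The Polycomb genes bmi1a and bmi1b read 64.8 and 63.5 CPM and 39.3 and 33.2 CPM in PGCs, and 38.1 and 29.6 CPM and 30.2 and 18.4 CPM in soma. Ago2, which loads small RNAs, read 133 and 120 CPM against 151 and 187 CPM, and dicer1 read 243 and 207 CPM against 231 and 158 CPM.

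Stress genes were higher in PGCs in several cases. Of 27 genes of the stress and immediate early response, 6 were higher at an unadjusted p under 0.05 (22.2%, against 2.93% of all genes), 0 were lower, and the median was 0.67. The 6 were ier2a, ddit3 and 4 genes of the inducible heat shock protein Hsp70, and 0 of the 27 were called by the edgeR quasi-likelihood test. The 22.2% counts the 4 Hsp70 genes separately, and 14 of the 27 had a mean under 5 CPM. The edgeR exact test on the 4 hpf libraries called the 4 Hsp70 genes, and the quasi-likelihood test with no filter on low counts called them and ier2a. The Hsp70 genes are near-identical copies between which the authors' counting could split reads, so they were also summed. The sum of hsp70.1, hsp70.2, hsp70.3 and hsp70l was 125.3 and 354 CPM in PGCs and 30.4 and 10.5 CPM in soma. Both cell types had 1 library well above the other, and the log2 fold change of the sum was 3.56 ± 1.098 (unadjusted p = 0.00578, adjusted p = 0.824). At 7 hpf the sum had a log2 fold change of 3.08 (adjusted p = 0.104). Ier2a, an immediate early gene, read 8.32 and 10.1 CPM in PGCs and 1.68 and 1.16 CPM in soma (2.70 ± 0.81), while the constitutive relative hspa8 read 1035 and 1463 CPM against 1176 and 1911 CPM. How long each cell type spent in dissociation and sorting is not given in the sources used here, and its part was not tested.

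Among the 10120 genes with a mean level of 5 CPM or more, in the lists or not, 75 were higher and 37 lower by a joint rule. The rule asked for a fold change past 1.5 on the log2 scale, an unadjusted p under 0.05 and separate groups. The 75 include 11 of the 13 germ plasm IDs and other genes already given, such as lef1, chek1 and the Hsp70 genes. After the genes already given, the highest by rank was hsp70.2, at 21.5 and 77.1 CPM in PGCs and 2.16 and 0 CPM in soma, followed by hsp70l at 23.6 and 36.8 CPM against 1.68 and 0 CPM. Further genes among the 75 were taken up after their values were seen. Ppfibp1a and ppfibp1b, a pair of liprin-beta genes that tie adhesion sites to the cytoskeleton, were both in the set. Ppfibp1a read 410 and 449 CPM in PGCs and 122 and 106 CPM in soma (log2 fold change 1.91 ± 0.58), and ppfibp1b read 186 and 208 CPM against 63.0 and 51.7 CPM (1.78 ± 0.34, adjusted p = 0.141). Ccdc88c, known as Daple, a regulator of Wnt signalling, read 139 and 213 CPM against 44.3 and 20.2 CPM (2.45 ± 0.43, adjusted p = 0.09398). Kpna6, a nuclear import receptor, read 67.5 and 118 CPM against 11.7 and 20.2 CPM (2.54 ± 0.52), and ndel1b, a dynein regulator, read 189 and 357 CPM against 72.9 and 72.7 CPM (1.91 ± 0.52).

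No gene was called lower in PGCs, and the smallest adjusted p of a gene in that direction was 0.19. The 12 ranked lowest had log2 fold changes from -2.81 to -1.91, and 6 of them carry no gene name. The lowest, ENSDARG00000104866, read 1.89 and 3.98 CPM in PGCs and 22.5 and 19.0 CPM in soma (-2.81 ± 1.05). Sytl1, a synaptotagmin-like protein of vesicle traffic, read 2.46 and 1.16 CPM in PGCs and 9.11 and 9.49 CPM in soma (-2.36 ± 0.99). Rpl22l1, a relative of a ribosomal protein, read 1.13 and 2.98 CPM against 4.55 and 14.1 CPM (-2.17 ± 0.54, unadjusted p = 0.00127, adjusted p = 0.63). The other named genes of the 12 were si:ch73-234i15.6 (-2.29), hpcal1 (-2.02), a neuronal calcium sensor gene, wdr70 (-1.95) and med31 (-1.91), of the Mediator complex. The groups of all 12 were apart, and their mean levels lay between 5.56 and 32.0 CPM. Further genes of the 37 lower by the joint rule were taken up after their values were seen. ENSDARG00000104184 read 28.2 and 23.7 CPM in PGCs and 76.5 and 114 CPM in soma (-1.87 ± 0.43, adjusted p = 0.431). Znf1048 read 13.2 and 11.6 CPM against 53.9 and 32.2 CPM (-1.79 ± 0.45, adjusted p = 0.6535). DESeq2 called both lower (adjusted p = 0.00312 and 0.0138). It also called hpse and cox8a lower, which are not among the 37. Their log2 fold changes by DESeq2 were -2.56 (adjusted p = 0.0440) and -2.85 (adjusted p = 0.0230).

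Libraries from before genome activation were not analysed here, so genes were split by their later course in soma. This split is only a partial stand-in for maternal and zygotic origin. Of 1413 genes whose soma level fell by more than 2 on the log2 scale from 7 to 24 hpf, 8 were higher in PGCs at an unadjusted p under 0.05 (0.566%) and 49 were lower (3.47%), with a median log2 fold change of -0.23. All genes tested gave 2.93% and 2.30% with a median of 0. Of 5429 genes whose soma level rose by more than 2 over the same time, 193 were higher (3.55%) and 140 lower (2.58%), with a median of 0. Most of these genes had a mean under 5 CPM at 4 hpf, and over those with a mean of at least 5 CPM the median was 0.17 for the 1103 rising genes, -0.22 for the 923 falling genes and -0.03 for all 10120. The difference between these shares was not tested, and the 7 hpf soma already contains zygotic RNA, so a falling course does not date a transcript to the egg. Transcripts already low in soma at 7 hpf, such as ca15b at 0.322 and 0 CPM, could not enter the falling class. The share of genes higher in PGCs in that class therefore leaves such RNAs out. A class that asks for a soma level high enough to fall can also raise its share of lower genes and lower its median. The part of this was not tested. Of the 9 called genes, 1 was in the falling class, 0 in the rising class and 8 in neither.

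At 7 hpf, in 4 libraries that share none with the 4 hpf comparison but entered the same fit, 648 genes were called higher in PGCs (3.16%) and 167 lower (0.813%). Of the 9 genes called at 4 hpf, 8 were called higher at 7 hpf as well. The exception was chkb, at 3.68 and 4.70 CPM in PGCs and 4.99 and 5.03 CPM in soma of 7 hpf (log2 fold change -0.26 ± 0.49), where PGCs kept a low level and soma stood about level with them. For the germ plasm list the 7 hpf median was 5.49, and 10 of the 13 were called. Ca15b read 484 and 245 CPM in PGCs and 0.322 and 0 CPM in soma of 7 hpf, against 27.3 and 9.88 CPM in soma of 4 hpf, and tdrd7a read 2061 and 3539 CPM in PGCs and 7.41 and 4.59 CPM in soma. PGC levels of tdrd7a were thus of the same order at both stages while its soma levels were lower at 7 hpf. Ddx4 read 1485 and 1736 CPM in PGCs and 87.3 and 28.2 CPM in soma, and its log2 fold changes of 4.47 and 4.80 at 4 and 7 hpf were close.

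**Figure D5:**
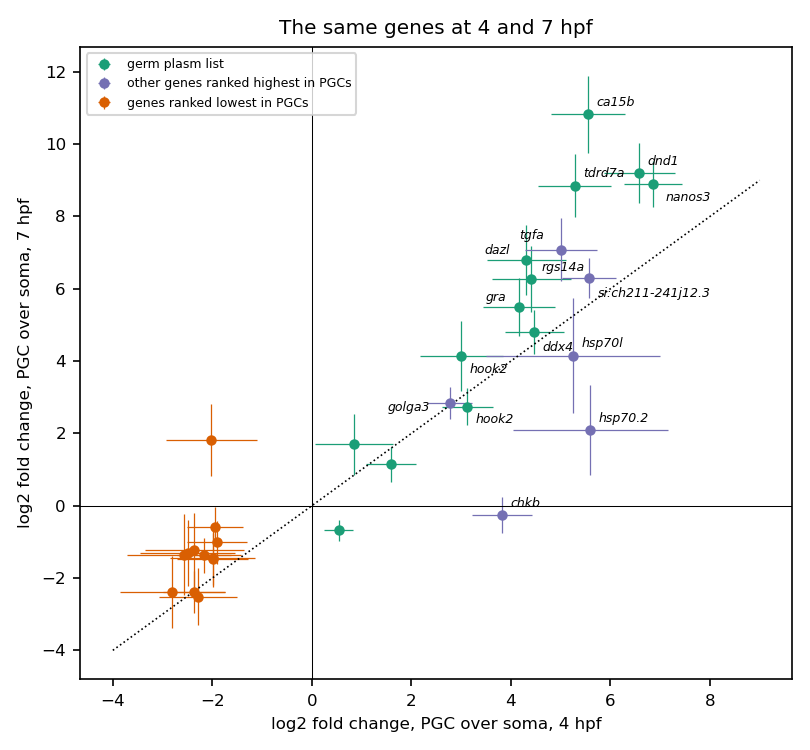
Log2 fold change of PGC over soma at 4 hpf (horizontal axis) and at 7 hpf (vertical axis) for the germ plasm list (green), the other genes ranked highest in PGCs (purple) and the 12 ranked lowest (orange); bars are standard errors and the dotted line is equality. Ca15b (5.55 and 10.83), hpcal1 (-2.02 and 1.81) and tdrd7a (5.28 and 8.85) lie furthest above the line, and chkb (3.82 and -0.26) lies below it. Hpcal1 is the one gene of the lowest 12 above 0 at 7 hpf.

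Of the 75 genes higher at 4 hpf in the set defined above, 23 were called higher at 7 hpf (30.7%, against 5.81% of all 10120 genes with a mean of at least 5 CPM at 4 hpf), 0 were called lower, and 58 had a log2 fold change over 0. Their 7 hpf median was 1.30. The 23 include the 10 germ plasm IDs called at 7 hpf, and also tgfa and golga3. The 30.7% thus rests in large part on genes already described. Both sets were chosen by unadjusted p in the same fit that gave the 7 hpf calls. Of the 37 lower genes, 4 were called lower at 7 hpf (10.8%, against 1.32%), 0 were called higher, and the median was -1.35. Among the genes of the 75 that were far apart at 7 hpf were ndel1b (log2 fold change 3.94), ppfibp1a (3.27) and vat1 (2.92). Lef1, also of the 75, was not among them, with -0.14 at 7 hpf after 1.81 at 4 hpf. Dusp6, outside the 75 by its fold change, had 0.25 at 7 hpf after 1.44 at 4 hpf. Whether the PGC to soma difference itself changed from 4 to 7 hpf was tested as an interaction, and 0 genes passed an adjusted p under 0.05 in the edgeR quasi-likelihood test (0%). The smallest adjusted p was 0.0722, 2232 genes had an unadjusted p under 0.05, and edgeR's likelihood ratio test gave 396 genes and DESeq2 331. The unadjusted p of the change was 0.000851 for ca15b, 0.00155 for tdrd7a and 0.000112 for chkb, whose adjusted p was 0.0989.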

How the data were processed

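RNA-seq libraries of PGCs and soma at 4, 7, 24 and 36 hpf (8 groups of 2, 16 libraries) were made from sorted cells with a stranded, low-input total RNA kit. The authors trimmed reads with Trim Galore, aligned them with STAR to danRer10 and quantified genes with RSEM. They deposited expected counts, of which 95.2% were whole numbers, TPM, and effective lengths. The 92 spike-in rows held 0 counts and were left out. Deposited expected counts were rounded and tested with edgeR 4.0.16 (R 4.3.3), with filterByExpr (minimum count 10), TMM factors and a quasi-likelihood fit over all 16 libraries, without a replicate block, and with Benjamini-Hochberg adjustment over 20536 genes. Standard errors were the log2 fold change divided by the square root of F. Of the genes tested, 2183 had no count in any 4 hpf library.

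Gene IDs were named from a table of IDs and symbols (26791 of 34289 named). Some duplicated genes share 1 name there, without the letter that tells the copies apart. Deposited TPM values were used for ranks, after 355 genes of effective length under 50 were left out and the rest rescaled. Those genes took 38% to 49% of each 4 hpf library's TPM. Limma 3.58.1, an alternative, took the deposited TPM values without this rescaling. No genome or transcript sequence was used, so no sequence is shown and miR-430 matches were not searched. The total per library (2825775 to 4674227 at 4 hpf) limits low levels, and intervals cover counting error only. Replicates of 1 group differed by more than sampling noise, with a chi-square per degree of freedom of 23.5 for PGCs and 17.7 for soma. With 2 libraries a group, p-values and standard errors rest on a spread between samples that the fit shares over all 16 libraries. They do not measure the spread of the 4 hpf libraries alone. For 1 soma library of 24 hpf, the source label names PGCs while the title and cell type name soma, and it was used as soma, in the shared spread and the later course.

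The groups, the lists and the comparison were chosen with earlier results of these data known. Genes are described by list, and by rank the 12 with the largest log2 fold change in each direction among called genes, filled up from genes past 1.5 on the log2 scale that had an unadjusted p under 0.05, separate groups and a mean level of 5 CPM or more, others being marked in the text. Scripts were tested on simulated data. The alternatives were other scaling, filters, edgeR tests, DESeq2 1.42.0, limma on log2(TPM + 1) and log2(TPM + 0.1), a replicate block, offsets from effective lengths, and leaving out each 4 hpf library. Summing the hsp70 copies was chosen after seeing the data.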

Additional observations from a re-analysis of the deposited data

How the results depend on the processing

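The count of genes called higher in PGCs, 9 as reported, was 59 with no filter on low counts, 15 with a stricter filter, 31 by the likelihood ratio test, 15 by the quasi-likelihood test and 31 by the exact test on the 4 hpf libraries alone, 23 by DESeq2, 28 by limma on log2(TPM + 1) and 25 on log2(TPM + 0.1), and from 1 to 8 with 1 library left out. Genes called lower, 0 as reported, numbered 32, 8, 7, 4, 4 and 6 with no filter, by the likelihood ratio test, exact test, DESeq2 and limma with the larger and smaller pseudocount, and 0 under the other alternatives. The 403 genes higher by unadjusted p became 613 with no filter, 184 with the stricter filter, 802 by the likelihood ratio test, 108 and 136 by the 2 tests on 4 hpf alone, 141 by limma on log2(TPM + 1), and 404 to 683 with 1 library left out. The 363 lower became 548, 107, 705, 64 and 84 in the same order, with 49 and 206 by limma. For the change from 4 to 7 hpf, 0 as reported, no filter gave 502 genes, the stricter filter 67, the likelihood ratio test 396, DESeq2 331 and limma 9 and 7. The settings tested 12147 to 27454 genes, and DESeq2 gave 7565 of its genes no adjusted p. Beyond the number of genes and libraries, the cause was not tested. No sign of a called gene was reversed. The median of all genes was 0.14 on log2(TPM + 1) and 0.22 on log2(TPM + 0.1), against 0 as reported, and list medians near 0 changed sign with it, while the germ plasm median ranged from 3.99 to 4.50 and the stress median from 0.43 to 1.97. Over all lists and alternatives, 260 medians stayed within the spread between libraries and 60 did not, and among values of named genes 53 passed the threshold and 33 fell below it only under an alternative.

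With a replicate block, 5 genes were called higher, of which 4 were among the 9 (nanos3, dnd1, ca15b and si:ch211-241j12.3) and the fifth was a hook2 copy, while ddx4, tdrd7a, tgfa, golga3 and chkb were not called. The differences between replicates 1 and 2 of PGCs and of soma correlated across genes at r = 0.298, and at 0.429 over the genes with a mean of at least 5 CPM. Labels name no shared clutch or day, however, and 4 hpf has only 2 pairs, so the libraries were not treated as paired.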
